A study of Mus musculus with 23 samples.

Results

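The T cell receptor repertoire of Nras-mutant mouse melanoma under trametinib, an inhibitor of the kinase MEK, was compared with that of the same model without drug at D4, the earlier of the study's time points. The comparison takes every alpha chain (TRA) and beta chain (TRB) entry of 3 trametinib D4 libraries and 3 control D4 libraries, 6 of the 23 libraries of the series. The study treated the model with no drug, trametinib, the RAF inhibitor BGB-283 or both, and sampled it at D4 and D11. In these 6 libraries 5104 TRB and 4703 TRA clonotypes were found. A clonotype here is 1 combination of a V segment, a J segment and a CDR3 amino acid sequence, the loop that V(D)J joining makes.

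Both groups share the melanoma model, a line that came from the Nras Q61R syngeneic line NIL and was exposed to UV light to raise its mutational burden. They share the RNA extraction and the library kit too, and differ in the treatment label, which reads trametinib in one group and no treatment in the other. The labels name the melanoma line as the tissue and give no dose, strain, age or sex, nor the event from which days are counted. They do not say whether the libraries come from separate animals, so every p-value measures the spread between libraries, which may be technical. For segment and V-J pair use the main fits estimated that spread over all 23 libraries. For whole-library measures at D4 it came from the 6. Melanoma genes were not measured in this assay, and the labelled tissue was not checked against them.

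Each T cell clone carries its own receptor, made by joining V, D and J segments for the beta chain and V and J segments for the alpha chain. A clone that divides after meeting antigen takes a larger share of the receptor transcripts, so a repertoire with many small clonotypes is diverse and one held by a few large clonotypes is focused. MEK and ERK carry signals both from mutant Ras in melanoma cells and from the T cell receptor in lymphocytes.

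TRB counts numbered 85945, 144779 and 193649 in trametinib replicates 1, 2 and 3, against 34553, 94814 and 186652 in control replicates 1, 2 and 3. TRA counts numbered 99281, 165373 and 294456 in trametinib libraries, against 45796, 137563 and 227206 in control libraries. The groups overlapped in both, and the exact permutation p was 0.6 for each chain (n = 3 each). In bulk RNA, more T cells, more receptor RNA per cell and deeper sequencing cannot be told apart in these totals. With 3 against 3 libraries, the two-sided exact permutation test used for whole-library measures has a smallest possible p of 0.1, so none of the 42 such measures could pass 0.05. In 14 of the 42 (33.3%) every trametinib library lay above every control library, and in 3 (7.14%) every one lay below. Many of the 42 describe clonotype numbers and sizes of the same libraries in different ways, so they are not independent. These 17 have p = 0.1 in the exact permutation test, and 0.247 after Benjamini-Hochberg adjustment over the 42.

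Trametinib libraries held about 3 times as many TRB clonotypes as control libraries. The numbers detected were 733, 1456 and 1657 in trametinib libraries, against 214, 416 and 696 in control libraries, means of 1282 ± 486 and 442 ± 242 (SD, n = 3 each). The groups did not overlap, and the log2 ratio was 1.61. Trametinib replicate 1, with 85945 TRB counts, held more clonotypes than control replicate 3, which had 186652 counts. At an equal 34553 counts per library, the expected numbers were 722, 1356 and 1525 in trametinib libraries, against 214, 409 and 648 in control libraries, a log2 ratio of 1.57.

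TRA gave the same order. The clonotypes detected numbered 743, 1125 and 1635 in trametinib libraries, against 265, 421 and 684 in control libraries, a log2 ratio of 1.39. At an equal 45796 counts the expected numbers were 732, 1068 and 1456 in trametinib libraries, against 265, 406 and 639 in control libraries, a log2 ratio of 1.35. No trametinib library lay within the control range in either chain.

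Counts in this table behave like reads rather than molecules: values pile up at 20, with 883 values of exactly 20 against 103 of 19 and 53 of 21 in the 6 libraries. Dividing each count by 20 and rounding up gave an estimated number of molecules. At the lowest estimated number of TRB molecules in a library, 1816, the expected clonotypes were 506, 630 and 605 in trametinib libraries, against 214, 282 and 313 in control libraries. On this scale the log2 ratio was 1.12 for TRB and 1.02 for TRA, smaller than on the count scale, with the groups still apart in both chains. Among TRB values of 3 to 20, the share at exactly 20 was 34.2%, 12.9% and 18.3% in trametinib libraries, against 39.7%, 43.5% and 28.1% in control libraries. Trametinib replicates 2 and 3 lay below all control libraries in this share and replicate 1 lay among them, and its part in the clonotype numbers was not tested beyond the estimate above.

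The effective clonotype number is the number of equally sized clonotypes that would give the same Shannon entropy. For TRB it was 183, 199 and 212 in trametinib libraries, against 65.4, 50.04 and 48.2 in control libraries. The spread within each group was small beside the gap, with means of 198.0 ± 14.1 and 54.6 ± 9.42 (SD, n = 3 each) and a log2 ratio of 1.87. For TRA it was 190, 142.5 and 142.4 in trametinib libraries, against 86.2, 48.9 and 49.3 in control libraries, a log2 ratio of 1.40.

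Large clonotypes took less of the TRB counts under trametinib. The 10 largest held 35.0%, 39.4% and 36.4% of TRB counts in trametinib libraries, against 46.2%, 57.7% and 59.0% in control libraries, a difference of -17.4 percentage points with no overlap. The number of clonotypes that together hold 50% of TRB counts was 43, 24 and 21 in trametinib libraries, against 13, 7 and 7 in control libraries. In TRA the 10 largest held 34.0%, 44.4% and 41.3% in trametinib libraries, against 39.5%, 61.2% and 60.4% in control libraries. These TRA ranges overlapped, because control replicate 1 lay below trametinib replicates 2 and 3, and the exact permutation p was 0.3 (n = 3 each).

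Clonotypes were then sorted by their share of the chain's counts. Small clonotypes, of 0.01% to 0.1%, numbered 408, 821 and 988 for TRB in trametinib libraries, against 82, 253 and 420 in control libraries. The lowest trametinib library lay just below the highest control library, so the numbers overlapped (exact permutation p = 0.2, n = 3 each). The share of TRB counts in this class did not overlap: 16.3%, 28.1% and 28.1% in trametinib libraries, against 3.75%, 10.7% and 13.5% in control libraries. In TRA the class numbered 381, 653 and 755 clonotypes in trametinib libraries, against 110, 230 and 321 in control libraries, and held 15.3%, 23.7% and 20.4% of counts in trametinib libraries, against 4.82%, 8.76% and 11.3% in control libraries. Both TRA measures of this class were without overlap.

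At the other end, clonotypes of 1% or more held 34.1%, 39.4% and 47.5% of TRB counts in trametinib libraries, against 63.1%, 65.5% and 64.7% in control libraries. The difference was -24.1 percentage points. Their number was 9, 10 and 18 in trametinib libraries, against 22, 16 and 14 in control libraries, so the numbers overlapped where the shares did not. In TRA such clonotypes held 33.02%, 49.9% and 53.6% of counts in trametinib libraries, against 54.5%, 70.5% and 66.5% in control libraries, a difference of -18.3 percentage points without overlap. The middle class, of 0.1% to 1%, held 49.1%, 29.9% and 21.5% of TRB counts in trametinib libraries, against 33.1%, 23.5% and 20.98% in control libraries. Here the groups overlapped, and without trametinib replicate 1 the difference of 7.67 percentage points turned to -0.14. The class under 0.01% is cut off by the lowest listed value of 3 counts, which is 0.00868% of TRB counts in control replicate 1. It numbered 89, 509 and 586 TRB clonotypes in trametinib libraries, against 8, 50 and 190 in control libraries, and the groups overlapped. On estimated molecules it numbered 0, 0 and 717 TRB clonotypes in trametinib libraries, against 0, 0 and 0 in control libraries. Most libraries are thus too shallow for this class, as 1 molecule there exceeds 0.01%.

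**Figure D1:**
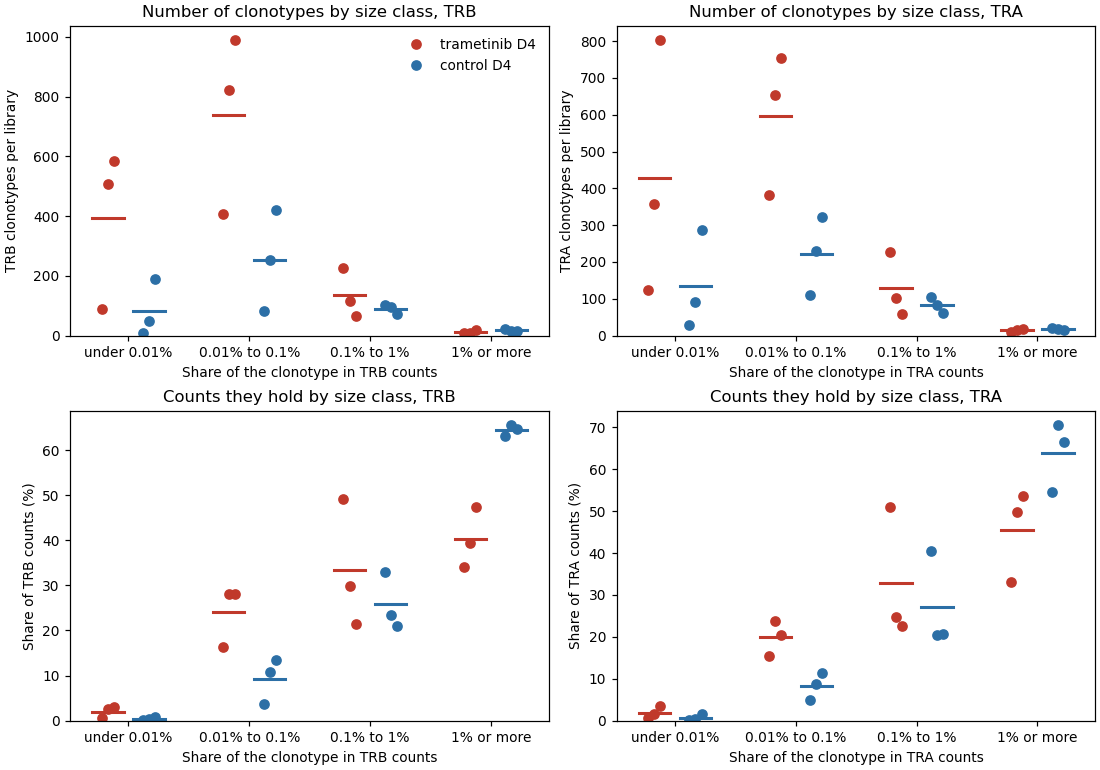
Clonotypes per library (upper row) and the percentage of the chain's counts they hold (lower row) in 4 classes of clonotype size, for TRB (left) and TRA (right). Points are single libraries, red for trametinib D4 and blue for control D4, and bars are means of 3 libraries. In the class of 0.01% to 0.1% the shares of counts stand higher in all trametinib libraries than in any control library, and in the class of 1% or more they stand lower.

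The plot of clonotype size against rank shows where the groups part. The largest TRB clonotype averaged 10.9% ± 3.75 of counts in trametinib libraries and 22.0% ± 10.7 in control libraries (SD, n = 3 each). At rank 100 the mean sizes were close, 0.128% in trametinib libraries and 0.129% in control libraries. At rank 200 they were 0.0821% ± 0.0327 in trametinib libraries and 0.0356% ± 0.0186 in control libraries. By rank 100 the clonotypes together held 67.0% ± 3.19 of TRB counts in trametinib libraries and 89.2% ± 3.47 in control libraries. For TRA the same sum was 71.7% ± 7.01 in trametinib libraries and 90.4% ± 1.08 in control libraries. The difference in the tail past rank 100 was thus present in both chains, while the largest clonotype varied widely among control libraries.

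**Figure D2:**
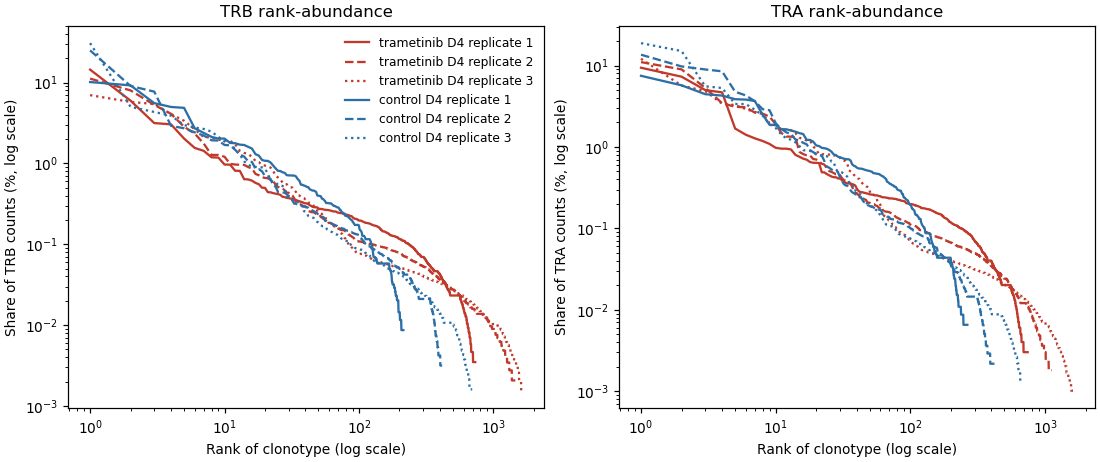
Share of the chain's counts (%, log scale) against the rank of the clonotype in its library (log scale), for TRB (left) and TRA (right). Lines are single libraries, red for trametinib D4 and blue for control D4. For TRB the trametinib lines end at ranks 733 to 1657, past all control lines, which end at ranks 214 to 696.

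The largest clonotypes themselves differed from library to library. Trametinib replicate 1 was led in TRB by a TRBV3 TRBJ2-5 clonotype of 14 residues with 14.5% of counts, followed by a TRBV15 TRBJ1-4 clonotype with 5.98% and a TRBV26 TRBJ2-7 clonotype with 3.16%. Trametinib replicate 2 was led by TRBV16 TRBJ2-5 with 11.2%, and trametinib replicate 3 by TRBV3 TRBJ2-5 with 7.002%. Control replicate 1 was led by TRBV15 TRBJ1-5 with 10.2%, control replicate 2 by TRBV16 TRBJ2-5 with 25.0%, and control replicate 3 by TRBV12-1 TRBJ2-7 with 30.8%. The last was the largest clonotype of either chain in the 6 libraries. Its 95% Wilson interval of 30.6% to 31.0% takes each of the library's 186652 TRB counts as a separate draw. The library has 9645 estimated TRB molecules, so the interval is too narrow even for counting error, and it leaves out the spread between libraries. In TRA the leaders were TRAV8-2 TRAJ11 (9.39%), TRAV16D/DV11V16N TRAJ31 (11.03%) and TRAV7D-2 TRAJ11 (12.1%) in trametinib replicates 1, 2 and 3. In control replicates 1, 2 and 3 they were TRAV13N-1 TRAJ9 (7.48%), TRAV7D-2 TRAJ34 (13.6%) and TRAV13D-1 TRAJ5 (18.8%). Joint names such as TRAV16D/DV11V16N stand for near-identical segment copies that the deposited table does not separate.

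Few clonotypes were found in more than 1 library. Of 5104 TRB clonotypes 5045 were in 1 library only, and of 4703 TRA clonotypes 4565 were. No clonotype was in all 6. Between 2 trametinib libraries 20 to 36 TRA clonotypes were shared, between a trametinib and a control library 6 to 21, and between 2 control libraries 4 to 11. The 20 to 36 make 1.71% to 3.77% of a trametinib library's TRA clonotypes, and the 4 to 11 make 0.585% to 2.61% of a control library's. Across the groups the 6 to 21 make 0.550% to 4.99% of the TRA clonotypes of one or the other library. For TRB the numbers shared were 2 to 8 between trametinib libraries, 1 to 14 between a trametinib and a control library, and 2 to 12 between control libraries. The TRB shares were 0.121% to 0.549% of a trametinib library's clonotypes and 0.287% to 2.88% of a control library's within the groups. Across the groups they were 0.0687% to 3.74% of one or the other library's. How sharing depends on the number detected was not tested. The TRB clonotype found in most of the 6 libraries, TRBV12-2 TRBJ2-5 with 13 residues, held 1.19%, 0.678% and 0.335% in trametinib libraries, against 0% (listed at 0), 0.0664% and 0.152% in control libraries, and was in 12 of the 23 libraries. The TRA counterpart, TRAV12N-3 TRAJ11 with 13 residues, held 0% (listed at 0), 0.129% and 4.86% in trametinib libraries, against 0.760%, 2.82% and 5.30% in control libraries.

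Clonotypes found in at least 2 libraries of one group and in none of the other numbered 10 for trametinib and 10 for control in TRB, and 57 for trametinib and 7 for control in TRA. Set against all clonotypes found in the group, these are 0.261% of 3833 in trametinib and 0.763% of 1310 in control libraries for TRB, and 1.66% of 3425 in trametinib and 0.518% of 1352 in control libraries for TRA. The shares thus stand in opposite order in the 2 chains, and neither difference was tested. The TRA clonotype with the highest mean share among the 57, TRAV9N-3 TRAJ27 with 14 residues, held 4.998%, 0% and 1.83% of TRA counts in trametinib replicates 1, 2 and 3. Among the 10 TRB clonotypes of control libraries, TRBV16 TRBJ2-5 with 13 residues held 25.0% in control replicate 2 and 1.87% in control replicate 3. The trametinib counterpart with the highest mean share, TRBV19 TRBJ2-4 with 13 residues, reached 0.743% in trametinib replicate 2 and 0.00349% in trametinib replicate 1, which is 3 counts.

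The higher number of clonotypes was spread over the segments. The mean number of clonotypes was higher in trametinib than in control libraries for 22 of 24 TRBV, 12 of 12 TRBJ, 101 of 122 TRAV and 39 of 41 TRAJ segments. Every trametinib library exceeded every control library in 11 of 24 TRBV (45.8%), 6 of 12 TRBJ (50%), 24 of 122 TRAV (19.7%) and 17 of 41 TRAJ segments (41.5%), and the reverse held for 0 segments of any kind. These numbers are scaled neither for depth nor for the total number of clonotypes, which was itself higher in every trametinib library. They largely repeat that total, and are no separate support for it. V-J pairs detected numbered 162, 202 and 206 for TRB in trametinib libraries, against 104, 135 and 160 in control libraries. For TRA they numbered 468, 656 and 880 in trametinib libraries, against 181, 271 and 407 in control libraries. The log2 ratios were 0.53 for TRB and 1.25 for TRA, and the groups did not overlap in either.

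Per pair, the mean number of clonotypes was higher in trametinib libraries for 206 of the 245 TRB pairs and 1199 of the 1645 TRA pairs seen in the 6 libraries. The groups did not overlap, with trametinib above, in 53 TRB pairs (21.6%) and 46 TRA pairs (2.8%). Pairs found in all 3 trametinib libraries and in no control library numbered 8 of the 245 for TRB and 37 of the 1645 for TRA. The reverse held for 0 pairs of either chain. Pairs found in all 3 libraries of a group were more numerous in trametinib anyway, 135 against 71 for TRB and 124 against 22 for TRA. None of these numbers is scaled for depth or for the total number of clonotypes. The 10 largest pairs held 45.9% ± 3.56 of TRB counts in trametinib libraries and 62.4% ± 10.7 in control libraries, and 45.3% ± 8.31 of TRA counts in trametinib libraries and 57.2% ± 11.3 in control libraries (SD, n = 3 each). The largest clonotype of a library's largest pair made up 73.0% to 94.3% of that pair in trametinib TRB and 51.9% to 96.1% in control TRB. For TRA it made up 95.2% to 97.6% in trametinib libraries and 43.5% to 99.0% in control libraries, the lowest being control replicate 1.

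Segment use, the share of a chain's counts that a segment takes, was compared by edgeR (quasi-likelihood F test on the summed counts of each segment). Of 24 TRBV segments 1 passed an adjusted p of 0.05, TRBV26, which was higher under trametinib (4.17%), and 0 were lower (0%). TRBV26, called Vbeta3 in the older naming, held 3.96%, 1.89% and 2.11% of TRB counts in trametinib libraries, against 0.663%, 0.0717% and 0.185% in control libraries. Every trametinib library stood above every control library, and the log2 fold change was 3.12 (SE 0.87, edgeR adjusted p = 0.0313). Leaving out 1 library gave 2.65 to 4.37, the highest without control replicate 1. It was represented by 11, 27 and 28 clonotypes in trametinib libraries, against 2, 1 and 2 in control libraries.

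A single clonotype made up 79.8%, 50.9% and 61.9% of the TRBV26 counts in trametinib replicates 1, 2 and 3. Without the largest TRBV26 clonotype of each library its share was 0.799%, 0.930% and 0.806% in trametinib libraries, against 0.298%, 0% and 0.0755% in control libraries. Control libraries had only 2, 1 and 2 TRBV26 clonotypes, so control replicate 2 fell to 0% by construction. The lack of overlap after this step is therefore no separate support. The trametinib values without that clonotype also lay above the control values with all counts, the highest of which was 0.663%. As a share of clonotypes rather than counts, TRBV26 was 1.501%, 1.85% and 1.69% in trametinib libraries, against 0.935%, 0.240% and 0.287% in control libraries. With each clonotype counted once the edgeR adjusted p was 0.0216, over the 20 TRBV segments that then passed the filter. The call was lost when 1 library was left out, with an edgeR adjusted p of 0.173 without trametinib replicate 1, 0.152 without control replicate 2 and 0.0862 without control replicate 3, and with only the 2 groups in the fit (0.127).

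The other TRBV segments did not pass. Groups did not overlap in 4 segments higher under trametinib (16.7%) and 1 lower (4.17%), and TRBV26 is among the 4. TRBV19 held 9.02%, 10.6% and 12.4% in trametinib libraries, against 5.59%, 2.49% and 4.83% in control libraries (log2 fold change 1.31, edgeR adjusted p = 0.316). TRBV24 held 0.0710%, 0.173% and 0.0269% in trametinib libraries and was listed at 0 in the 3 control libraries (edgeR adjusted p = 0.182). Against 3 counts per control library its mean was 20.1-fold higher. This ratio is no lower bound, since 3 counts lie below the 20 of 1 estimated molecule. TRBV31 held 0.127%, 0.203% and 0.192% in trametinib libraries, against 3.08%, 0.291% and 0.714% in control libraries (log2 fold change -2.96, edgeR adjusted p = 0.185). Without control replicate 1 its log2 fold change was -1.53, and without trametinib replicate 2 the ratio for TRBV24 against 3 counts was 10.9-fold.

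The segments with the most TRB counts showed wide spread. TRBV16 held 11.1%, 21.4% and 17.9% in trametinib libraries, against 8.97%, 35.9% and 19.9% in control libraries. TRBV3 held 20.4%, 11.4% and 13.5% in trametinib libraries, against 7.52%, 24.9% and 8.51% in control libraries. TRBV12-1 held 3.79%, 4.79% and 4.97% in trametinib libraries, against 5.70%, 1.96% and 33.4% in control libraries, where 1 clonotype made up 92.4% of the highest value. TRBV12-2 held 8.97%, 7.96% and 4.02% in trametinib libraries, against 21.9%, 5.88% and 2.19% in control libraries. The groups overlapped in all 4 of these segments. TRBV22 was listed at 0 in all trametinib libraries and in 2 control libraries, with 1 clonotype of 0.0857% in control replicate 3.

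**Figure D3:**
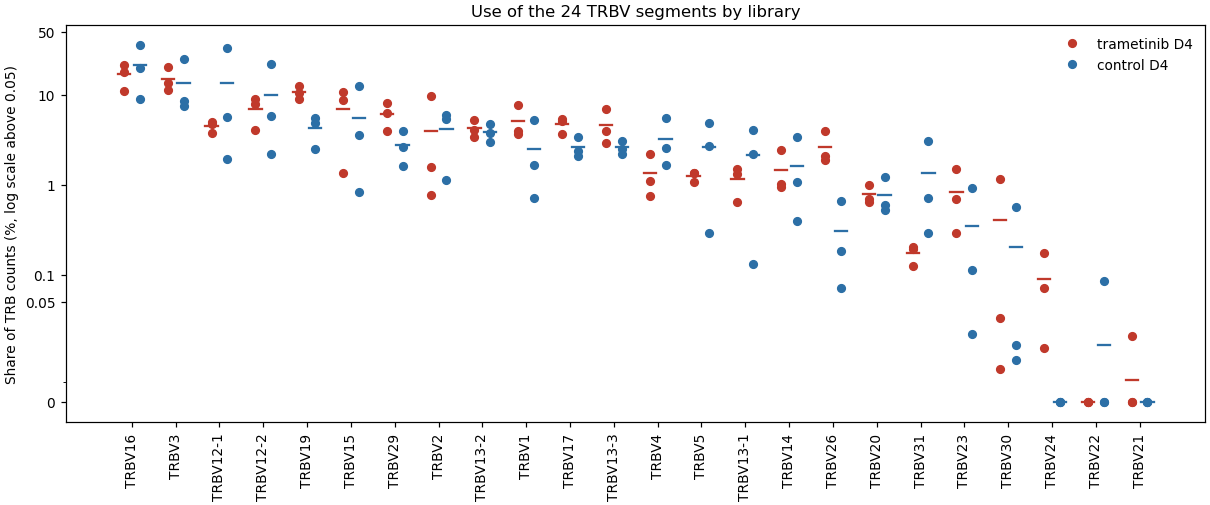
Share of TRB counts (%, log scale above 0.05% and linear below) of each of the 24 TRBV segments, ordered by their mean over the 6 libraries. Points are single libraries, red for trametinib D4 and blue for control D4, and bars are means of 3 libraries. TRBV26 is the segment that passed the edgeR test, with trametinib libraries at 1.89% to 3.96% and control libraries at 0.0717% to 0.663%.

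No TRBJ segment passed: edgeR called 0 of 12 (0%), with 1 at an unadjusted p under 0.05, and DESeq2 called 0. That 1 was TRBJ2-2, with 3.77%, 2.53% and 4.36% in trametinib libraries, against 1.02%, 1.64% and 0.949% in control libraries (log2 fold change 1.56, edgeR adjusted p = 0.564). TRBJ2-2 and TRBJ1-3 were the 2 of 12 segments (16.7%) without overlap, both higher under trametinib. TRBJ1-3 held 2.45%, 2.92% and 1.94% in trametinib libraries, against 1.02%, 1.25% and 0.986% in control libraries. The more used TRBJ segments overlapped between the groups. TRBJ2-5, the J segment with the highest mean share, held 28.5%, 31.1% and 24.3% in trametinib libraries, against 10.3%, 37.1% and 18.7% in control libraries. TRBJ2-7 held 16.4%, 10.6% and 14.9% in trametinib libraries, against 10.8%, 6.32% and 40.1% in control libraries, and the same clonotype that led TRBV12-1 made up 76.9% of the last value. The first J cluster as a whole, the TRBJ1 segments, held 29.7%, 32.6% and 20.04% in trametinib libraries, against 37.0%, 24.04% and 20.3% in control libraries (exact permutation p = 1.0, n = 3 each).

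Of 118 TRAV segments tested, edgeR called 1 (0.847%), TRAV16D/DV11V16N, which was higher under trametinib, and 0 lower. It held 7.28%, 12.8% and 2.56% of TRA counts in trametinib libraries, against 0.985%, 0.482% and 0.325% in control libraries, a log2 fold change of 3.66 (SE 0.90, edgeR adjusted p = 0.0498). It was represented by 42, 48 and 51 clonotypes in trametinib libraries, against 4, 6 and 11 in control libraries. The groups did not overlap in either. A single clonotype made up 64.4%, 85.9% and 30.7% of its counts in trametinib replicates 1, 2 and 3. Without the largest clonotype of each library it held 2.59%, 1.80% and 1.77% in trametinib libraries, against 0.633%, 0.342% and 0.260% in control libraries.

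Counted as a share of clonotypes, TRAV16D/DV11V16N was 5.65%, 4.27% and 3.12% in trametinib libraries, against 1.51%, 1.43% and 1.61% in control libraries, and with each clonotype counted once the edgeR adjusted p was 0.00418, over the 56 TRAV segments that then passed the filter. On counts the call sat at the threshold and was lost in 4 of the 6 fits that left out a library. The edgeR adjusted p was 0.109 and 0.366 without trametinib replicates 1 and 2, and 0.325 and 0.102 without control replicates 2 and 3. The log2 fold change was 3.04 to 4.23 over the 6 fits, the lowest without trametinib replicate 2. The edgeR adjusted p was 0.144 with TMM factors, 0.122 without the filter on low counts, 0.350 with only the 2 groups in the edgeR fit and 0.0883 with replicate number as a block. DESeq2 called 6 of the 118 TRAV segments higher and 4 lower on the same counts. Its calls include extreme log2 fold changes for names listed at 0 in a whole group. These were 22.2 for TRAV9N-2V9N-4, at 0 in all control libraries, and -22.1 for TRAV14-1V14D-3/DV8V14N-1V14N-3, found in 1 control library only. The median log2 fold change over the 118 segments was 0.17.

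TRAV segments without overlap numbered 10 higher under trametinib (8.47%) and 1 lower (0.847%). The 1 lower was TRAV7N-5, with 0.360%, 0.158% and 0.294% in trametinib libraries, against 3.66%, 11.2% and 1.24% in control libraries (log2 fold change -4.31, edgeR adjusted p = 0.122, and -3.18 on the log2 scale without control replicate 2). Its largest clonotype made up 75.8% of the 11.2%, and without the largest clonotype of each library TRAV7N-5 held 0.212%, 0.0514% and 0.244% in trametinib libraries, against 1.79%, 2.72% and 0.709% in control libraries. TRAV9N-4 held 2.24%, 0.985% and 0.108% in trametinib libraries, against 0.131%, 0.0473% and 0.0445% in control libraries (edgeR adjusted p = 0.257). TRAV7D-2, the alpha segment with the highest mean share, held 6.99%, 10.3% and 29.6% in trametinib libraries, against 10.3%, 19.9% and 6.37% in control libraries.

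**Figure D4:**
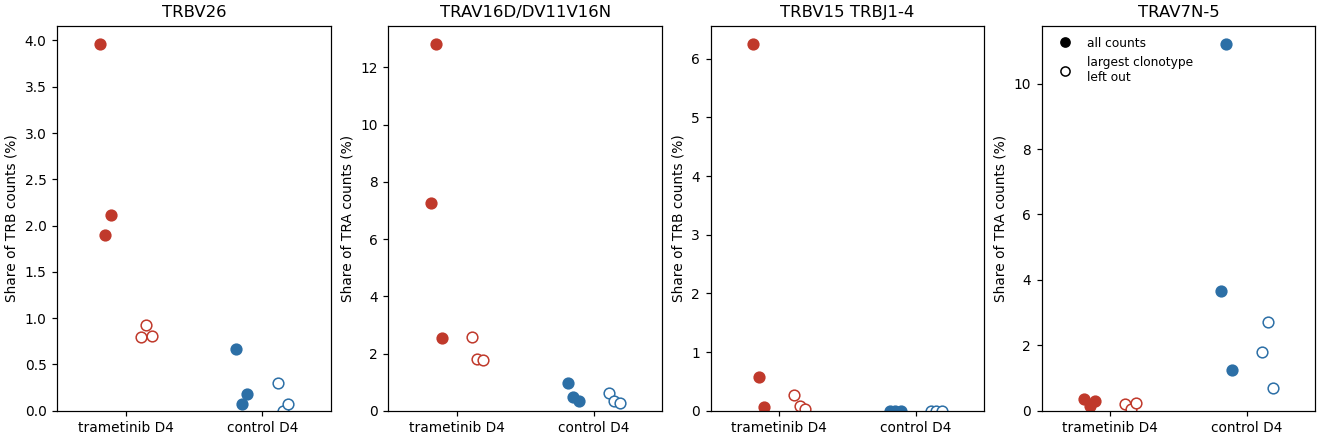
Share of the chain's counts (%) of TRBV26, TRAV16D/DV11V16N, the pair TRBV15 TRBJ1-4 and TRAV7N-5 in each library, with trametinib D4 in red at left and control D4 in blue at right. Filled points use all counts, and open points leave out the largest clonotype of the segment or pair in that library. TRBV26 stands at 0.799% to 0.930% in trametinib libraries without that clonotype, against 0% to 0.298% in control libraries, which had only 1 or 2 TRBV26 clonotypes each with all counts.

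Of 41 TRAJ segments edgeR called 0 (0%), with 4 at an unadjusted p under 0.05, and DESeq2 called 1, which was lower under trametinib. In 6 segments (14.6%) every trametinib library stood above every control library, and in 0 below. TRAJ24 held 1.80%, 3.38% and 0.358% in trametinib libraries, against 0.498%, 0.0509% and 0.107% in control libraries (log2 fold change 3.08, edgeR adjusted p = 0.380). Without control replicate 1 its log2 fold change was 4.55, and without trametinib replicate 2 it was 2.31. TRAJ35 held 0.274%, 0.222% and 0.0428% in trametinib libraries, against 0.607%, 0.104% and 5.67% in control libraries, where 1 clonotype made up 98.1% of the last value. TRAJ5 held 1.76%, 0.226% and 18.003% in trametinib libraries, against 15.4%, 5.81% and 20.8% in control libraries, so both groups ranged widely. TRAJ52 held 1.81%, 0.408% and 0.946% in trametinib libraries, against 0% (listed at 0), 0.276% and 0.137% in control libraries (edgeR adjusted p = 0.380).

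Of 264 TRB V-J pairs tested over the 23 libraries, edgeR called 1 (0.379%), TRBV15 TRBJ1-4. It held 6.25%, 0.579% and 0.0666% of TRB counts in trametinib libraries and was listed at 0 in the 3 control libraries (edgeR adjusted p = 0.0375). Against 3 counts per control library the mean was 513-fold higher, and 72.0-fold higher without trametinib replicate 1. These ratios are no lower bounds, since 3 counts lie below the 20 of 1 estimated molecule. The pair had 12, 7 and 3 clonotypes in trametinib libraries, and a single clonotype made up 95.7%, 85.3% and 54.3% of its counts there. Without trametinib replicate 1 the edgeR adjusted p was 0.222, and it was 0.0671, 0.209 and 0.182 without control replicates 1, 2 and 3. It was 0.109 with TMM factors and 0.187 with only the 2 groups in the edgeR fit. With each clonotype counted once, 80 TRB pairs passed the filter and edgeR called 0 of them, with 9 at an unadjusted p under 0.05, and TRBV15 TRBJ1-4 was not among the pairs tested. DESeq2 called 21 of the 264 pairs higher and 8 lower.

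In 40 TRB pairs (15.2%) every trametinib library stood above every control library, and in 0 (0%) below. At an unadjusted p under 0.05 edgeR had 42 pairs higher and 8 lower. TRBV12-1 TRBJ1-3 held 0.113%, 0.238% and 0.0341% in trametinib libraries and was listed at 0 in the 3 control libraries (edgeR adjusted p = 0.219 over all libraries). Against 3 counts per control library its mean was 28.6-fold higher, and 16.4-fold without trametinib replicate 2. These ratios too are no lower bounds. TRBV12-2 TRBJ2-4 held 0.688%, 0.198% and 0.154% in trametinib libraries, against 10.01%, 2.61% and 0.0771% in control libraries (edgeR adjusted p = 0.219), so the groups overlapped through control replicate 3.

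Of 1941 TRA V-J pairs tested over the 23 libraries, edgeR called 0 (0%), with 154 higher and 47 lower at an unadjusted p under 0.05. DESeq2 called 255 of the 1941 higher and 57 lower. Its log2 fold change was 41.6 for TRAV8-2 TRAJ11, a pair carried by 1 trametinib library. A DESeq2 call here thus need not stand for a difference shared by the 3 libraries of a group. The 6 libraries held 1645 TRA pairs, so shares of the 1941 include pairs at 0 in all 6. Groups did not overlap in 50 pairs higher under trametinib (2.58%) and 4 lower (0.206%). The pairs with the smallest p in each direction were each carried by 1 library. TRAV8-2 TRAJ11 held 9.71%, 0% and 0.0533% in trametinib libraries and was listed at 0 in the 3 control libraries (edgeR adjusted p = 0.339). TRAV8-1V8D-1 TRAJ35 was listed at 0 in the 3 trametinib libraries, against 0%, 0% and 5.65% in control libraries.

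The TRB CDR3 was slightly longer by counts under trametinib, and the difference rested on the largest clonotypes. The mean length weighted by counts was 13.94, 13.82 and 13.89 residues in trametinib libraries, against 13.67, 13.72 and 13.25 in control libraries. The groups did not overlap, at a difference of 0.338 residues. Leaving out the largest clonotype of each library gave 13.93, 13.92 and 13.88 residues in trametinib libraries, against 13.75, 13.96 and 13.81 in control libraries, a difference of 0.076 with overlap (exact permutation p = 0.4, n = 3 each). Counting each clonotype once gave 14.05, 13.90 and 13.93 in trametinib libraries, against 13.77, 13.95 and 13.82 in control libraries.

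Loops of 12 residues or fewer held 8.76%, 9.68% and 8.26% of TRB counts in trametinib libraries, against 16.05%, 5.58% and 40.6% in control libraries. The 40.6% of control replicate 3 came to 14.1% without its TRBV12-1 TRBJ2-7 clonotype of 12 residues. Loops of 16 residues or more held 10.95% ± 2.27 of TRB counts in trametinib libraries and 8.57% ± 2.32 in control libraries (SD, n = 3 each; exact permutation p = 0.3). The TRA mean length was 13.58, 13.54 and 13.69 residues in trametinib libraries, against 13.62, 13.31 and 13.74 in control libraries (exact permutation p = 0.9, n = 3 each). Control replicate 2 had 30.2% of TRA counts in loops of 12 residues or fewer, the highest of the 6.

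**Figure D5:**
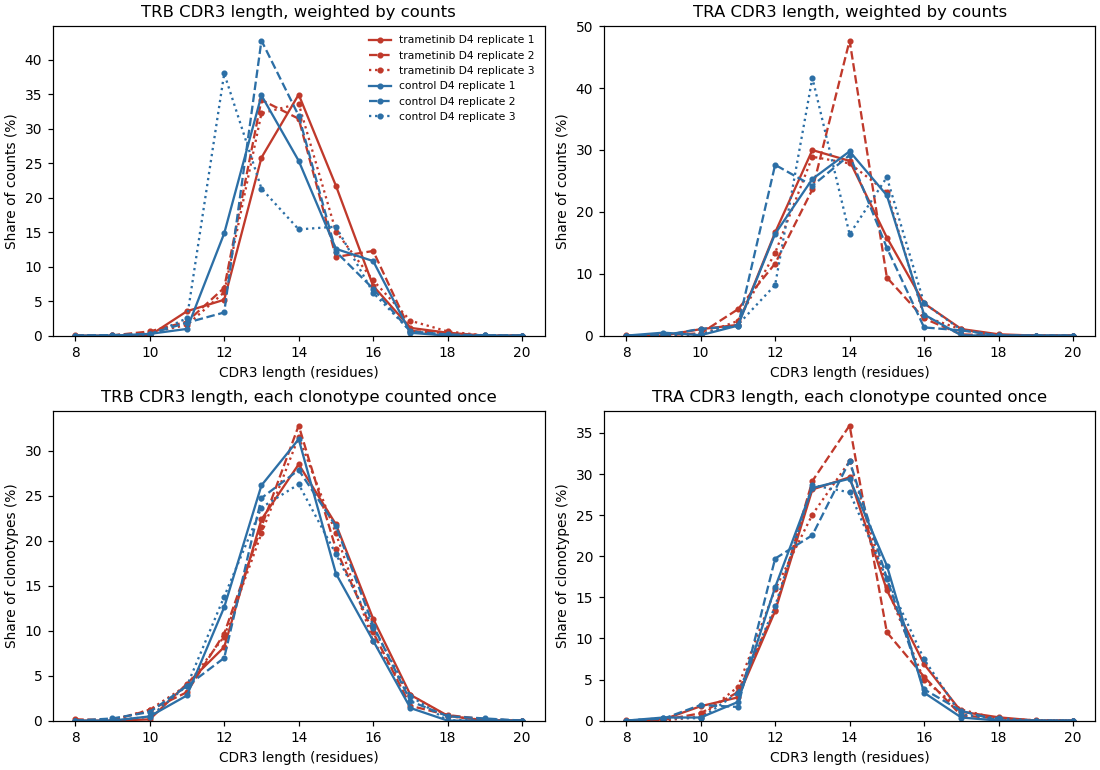
Distribution of CDR3 length in residues for TRB (left) and TRA (right), as the percentage of counts (upper row) and of clonotypes with each counted once (lower row). Lines are single libraries, red for trametinib D4 and blue for control D4. The TRB peak at 12 residues in control replicate 3 is present by counts, where loops of 12 residues or fewer make 40.6%, and not by clonotypes, where they make 18.2%.

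Receptors of unconventional T cells were looked up by their known segments. Invariant NKT cells, which see lipid antigens on CD1d, carry an alpha chain of TRAV11 and TRAJ18. Counts of this alpha chain were 209, 501 and 949 in trametinib libraries, which is 0.211%, 0.303% and 0.322% of TRA counts, against 0, 287 and 0 in control libraries, where the 287 are 0.209%. All trametinib libraries lay above control replicate 2, by little in replicate 1, and the other 2 control libraries were listed at 0. The mean difference in log2 odds was 6.22 with 0.5 counts added to each side and 4.01 with 5 counts added, so its size depends on the added count. MAIT cells, which see vitamin metabolites on MR1, carry TRAV1 and TRAJ33, and this alpha chain was listed at 0 in all 6 libraries, where a listed value of 3 counts would be 0.00102% to 0.00655% of TRA counts. The Vbeta8 segments, TRBV13-1 to TRBV13-3, held 9.55%, 13.6% and 6.97% of TRB counts in trametinib libraries, against 9.57%, 9.01% and 7.15% in control libraries (exact permutation p = 0.7, n = 3 each).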

How the data were processed

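Receptor transcripts were made into libraries with QIAGEN's QIAseq kit for immune repertoires, per the labels' protocols. The authors' deposited table holds whole-number counts for each chain, V, J and translated CDR3, and nothing scales one library to another. GRCh38, a human assembly, is the build per the submitters' processing notes. How reads were aligned and clonotypes called and filtered is not given in the sources used here. No TRG or TRD entry is in the table and, in these libraries, no value of 1 or 2. Total counts were 80349 to 488105 in the 6 libraries and 70038 to 798622 in the 23.

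Of 64710 entries, 274 with an unresolved residue were left out (0.0155% of the counts of the 6 libraries). Numbers at equal counts are hypergeometric expectations. Whole-library measures used two-sided exact permutation tests, adjusted over 42. Usage was fitted with edgeR 4.0.16 (R 4.3.3) on all 8 groups, with the chain total as library size, no TMM and filterByExpr, adjusted within each family. DESeq2 1.42.0 was an alternative, with size factors estimated from the features (its poscounts type) in place of chain totals. The biological coefficient of variation was 0.935 for TRBV and 1.32 for TRAV. Scripts were tested on simulated data. Segments named were drawn from those past adjusted p 0.05, the 3 with the smallest p in each direction where fewer than 5 passed, and the 5 most used of each single-segment family. Clonotypes named were drawn from the 3 largest per library, up to 5 per chain and group shared within a group and absent from the other, and those in most of the 6 libraries. Not every member of these pools is named, and the choice among them followed no rule. The other alternatives were estimated molecules, counts under 20 removed, clonotypes defined by CDR3 alone, equal counts, each clonotype once, a replicate block and leaving out each library. Leaving out the largest clonotype of each library was added after seeing the data. Members and lists were chosen with earlier results of these data known. Segment names matched RefSeq symbols (GRCm38.p6) for all 24 TRBV, 12 TRBJ and 41 TRAJ names and for 61 of the 122 TRAV names. The other TRAV names are mostly joint names of copies. CDR3 residues are not printed.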

Additional observations from a re-analysis of the deposited data

Results flagged for a closer look

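The trametinib effect at D11, from 3 trametinib and 2 control libraries, was set against that at D4, and 4 differences between the time points stood out, of which 3 passed their adjusted test. The trametinib minus control difference in mean TRB CDR3 length differed by -1.07 residues (exact permutation p = 0.01 over 200 permutations, 0.42 after adjustment over 42 measures), and did not pass that adjustment. TRBJ2-2 differed by -3.41 on the log2 scale (edgeR adjusted p = 0.044), with 3.19%, 2.29% and 4.84% in trametinib D11 libraries, against 21.4% and 3.45% in control D11 libraries. TRAV16D/DV11V16N differed by -5.11 (edgeR adjusted p = 0.0252), with 4.63%, 2.85% and 2.96% in trametinib D11 libraries, against 2.91% and 16.1% in control D11 libraries. TRAV7N-5 differed by 7.97 (edgeR adjusted p = 0.0252), with 0.520%, 3.59% and 4.01% in trametinib D11 libraries, against 0.0693% and 0.357% in control D11 libraries. For TRBJ2-2 and TRAV16D/DV11V16N, 1 of the 2 control D11 libraries carries the high value.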

How the results depend on the processing

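The higher clonotype number, number at equal counts and effective number under trametinib kept their direction in both chains under every alternative run. Leaving out 1 library gave log2 ratios at equal counts of 1.17 to 1.95 for TRB and 1.04 to 1.67 for TRA. The libraries were treated as unpaired. For TRBV, same-number correlations of segment use ran from -0.248 to 0.142, and different-number ones from -0.264 to 0.365. For TRAV, same-number correlations ran from 0.0893 to 0.266, all above the different-number ones, which ran from -0.220 to 0.0382. A pairing by replicate number in TRAV is thus not excluded and was not tested. With the replicate block, TRAV calls numbered 0 and TRAV16D/DV11V16N had an edgeR adjusted p of 0.0883, and TRAJ34 turned to 0.22. No other count of calls was moved by the block, and same-pair permutation has a smallest p of 0.25.

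Counts of calls moved as follows. TRBV had 4 of 24 with DESeq2 and 0 with only the 2 groups. TRAV had 0 with TMM, 0 without the filter on low counts, 0 with only the 2 groups and 10 of 118 with DESeq2. TRAJ had 1 of 41 with DESeq2. TRB pairs had 0 with TMM, 0 with only the 2 groups, 0 of 80 tested with each clonotype once and 29 of 264 with DESeq2. TRA pairs had 312 of 1941 with DESeq2. Leaving out 1 library gave 0 to 1 TRBV, 0 to 2 TRAV, 0 to 1 TRAJ and 0 to 2 TRB pairs.

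Signs turned on the log2 scale for segments that had not passed. With TMM these were TRBV3 (-0.40), TRBJ1-1 (-0.081), TRBJ2-5 (-0.032) and TRBJ1-4 (-0.19), and with DESeq2 TRBV3 (-0.22) and TRBJ1-4 (-0.11). With each clonotype once they were TRBV3 (-0.13), TRBJ1-1 (-0.24), TRBJ2-5 (-0.33), TRBJ1-4 (-0.081), TRBJ2-7 (0.13), TRAV14-2V14N-2 (0.71), TRAJ11 (-0.21) and TRAJ22 (0.29). Without 1 library, TRBV3 ran from -0.15 to 0.92, TRBV12-2 from -0.99 to 0.79, TRBV16 from -0.73 to 0.22 and TRBV12-1 from -2.11 to 0.24. TRBJ1-1 ran from -0.064 to 1.08, TRBJ1-4 from -0.26 to 0.53, TRBJ2-7 from -0.87 to 0.70, TRBJ1-5 from -1.94 to 1.14 and TRBJ2-1 from -0.18 to 0.60. TRAV14-2V14N-2 ran from -0.97 to 0.52, TRAV7-5 from -1.85 to 0.52, TRAV7D-2 from -0.49 to 0.91, TRAV13D-1 from -1.20 to 1.07, TRAJ34 from -1.47 to 3.28 and TRAJ22 from -0.65 to 0.35.

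Without 1 library, differences of whole-library measures also turned sign. The middle size class ran from -0.14 to 13.7 percentage points of TRB counts and from -3.54 to 12.2 of TRA counts, and from -3.33 to 81.2 TRA clonotypes. TRA counts ran from -0.064 to 1.09, and TRA mean CDR3 length from -0.082 to 0.136 residues. TRA loops of 12 or fewer ran from -7.29 to 2.73, of 13 to 15 from -2.46 to 5.56 and of 16 or more from -0.37 to 1.73 percentage points. The Vbeta8 list ran from -0.065 to 0.47 and the TRBJ1 cluster from -0.21 to 0.39 in log2 odds, and the MAIT list, at 0 throughout, from -1.09 to 0.064, which reflects the chain totals alone. The causes were not tested. Depth limits the classes under 0.1% and values of a few counts.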

Other observations

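Some large clonotypes of different libraries differed by 1 CDR3 residue, a pattern chosen after the values were seen. Among clonotypes of 1% or more of a chain's counts in the 6 libraries, 9 of 87 in TRB and 14 of 87 in TRA had a counterpart of 1% or more in another library with the same V, J and length and 1 different residue. A TRBV16 TRBJ2-5 clonotype with 11.2% in trametinib replicate 2 differed at residue 5, counted from the first residue of the CDR3, from one with 25.0% in control replicate 2 and 1.87% in control replicate 3. A TRBV1 TRBJ2-3 clonotype with 5.45% in trametinib replicate 3 differed at residue 5 from one with 4.34% in control replicate 3. A TRAV13D-1 TRAJ5 clonotype with 5.68% in trametinib replicate 3 differed at residue 5 from one with 18.8% in control replicate 3. Most of these counterparts joined a trametinib and a control library, and no test of their number was run. Among the possible pairs of the 6 libraries, 9 join the groups and 3 lie within each group.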
